A study of Rattus norvegicus with 34 samples.

Results

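ATP-binding cassette (ABC) transporters were followed in the testis of adult rats that had eaten triazole fungicides from before birth. Members were all probe sets whose only gene symbol in the platform annotation began with Abca to Abcg and a digit. This gave 50 probe sets for 37 genes, out of 31042 probe sets tested and 14217 genes named by a probe set with 1 symbol. Another 2 probe sets carried an ABC symbol together with further symbols and were not used. For 9 of the genes there were several probe sets, and the one of highest mean over all arrays speaks for the gene unless another is named. The animals were male Wistar Han rats fed a treated diet from gestation day 6 to postnatal day 92, and testis RNA of each animal was put on 1 Affymetrix rat array. Myclobutanil was given at 500 ppm (M500, 3 arrays) and 2000 ppm (M2000, 5 arrays), propiconazole at 500 ppm (P500, 4 arrays) and 2500 ppm (P2500, 5 arrays), and triadimefon at 500 ppm (T500, 4 arrays) and 1800 ppm (T1800, 4 arrays). Control animals had a dose of 0 ppm (6 arrays). A further 3 labelled animals had no values and were not analysed here. The labels name no litters, so it is unknown whether some animals were littermates, and p-values measure the spread between these arrays.

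ABC transporters use the energy of ATP to move substrates across membranes, and most of them export lipids, sterols, bile constituents, drugs or conjugates from the cell. In the testis, exporters in the walls of blood vessels and in Sertoli cells, such as P-glycoprotein (Abcb1a) and Abcg2, are part of the blood-testis barrier that keeps foreign compounds from germ cells, and Abca1 passes cholesterol from Sertoli and other cells to apolipoproteins. The Abce and Abcf members have the ATP-binding cassettes but no membrane domain, and work on ribosomes. In liver, Abcc2, Abcb11, Abcb4, Abcg5 and Abcg8 carry conjugates, bile salts, phospholipid and sterols into bile.

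Promoter windows of 3 members are shown because the results turn on them or on their contrast: Abcc2 had the largest positive difference of any member in P2500 against Control, Abcg5 is another exporter of liver cells that had no such difference, and Abcf2 had the brightest signal of all members. The windows run from 250 bases before to 50 bases after the start of the gene and were taken from RefSeq on the rat build GRCr8. They lie at chr1:252613625-252613924 (plus strand), chr6:15717686-15717985 (plus strand) and chr4:11487072-11487371 (plus strand). Capitals mark matches on either strand to 5 short motifs: the nuclear receptor core motif AGGTCA, the HNF1-type motif GTTAAT, the CCAAT box CCAAT, the GC box GGGCGG and the TATA box TATAAA.
Abcc2: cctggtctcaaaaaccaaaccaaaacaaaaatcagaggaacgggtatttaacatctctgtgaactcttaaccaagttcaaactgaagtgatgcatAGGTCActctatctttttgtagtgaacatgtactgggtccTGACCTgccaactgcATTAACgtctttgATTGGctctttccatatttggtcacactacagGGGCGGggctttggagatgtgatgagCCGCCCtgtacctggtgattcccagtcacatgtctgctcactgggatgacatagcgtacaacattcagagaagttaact
Abcg5: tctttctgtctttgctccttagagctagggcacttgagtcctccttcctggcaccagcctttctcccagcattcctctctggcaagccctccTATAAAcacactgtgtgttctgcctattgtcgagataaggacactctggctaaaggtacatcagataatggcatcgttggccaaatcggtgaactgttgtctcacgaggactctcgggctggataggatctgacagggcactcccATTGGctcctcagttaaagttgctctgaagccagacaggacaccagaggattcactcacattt
Abcf2: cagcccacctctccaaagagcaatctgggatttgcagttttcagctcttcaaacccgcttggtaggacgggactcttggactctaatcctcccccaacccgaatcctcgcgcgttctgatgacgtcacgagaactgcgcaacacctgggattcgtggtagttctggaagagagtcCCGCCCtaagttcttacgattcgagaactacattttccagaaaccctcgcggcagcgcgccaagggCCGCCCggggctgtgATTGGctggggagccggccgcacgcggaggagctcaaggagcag
The Abcc2 window held the nuclear receptor motif in both orientations, the HNF1-type motif on the reverse strand, a CCAAT box and a pair of GC boxes. The Abcg5 window held a TATA box and a CCAAT box, and overlapped the window of Abcg8 (chr6:15717681-15717980, minus strand), since these genes start head to head. In the Abcf2 window there were 2 GC boxes and 1 CCAAT box. No marked matches overlapped each other.

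Windows were available for 30 of the 37 genes. A GC box lay in 21 of these 30 (70%), against 33.1% of all 33469 promoters of the same length, and the median number of CpG dinucleotides was 23 in the ABC windows, against 7 in all. The 33469 promoters outnumber the 14217 genes named on the array, and no share over the array's genes was taken, so the sets are unlike. For the other motifs the shares were near those of all promoters: AGGTCA was in 16.7% against 16.2%, GTTAAT in 6.67% against 7.45%, CCAAT in 36.7% against 37.5% and TATAAA in 13.3% against 14.2%. These matches are a description of letters, not of bound factors.

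The deposited values are scores on a log-like scale of unknown base with array medians near 0, so levels and differences below are in score units after quantile normalization, and no fold is given. The tissue label was checked with Prm1, Tnp1, Ldhc, Cyp17a1 and Insl3, genes of germ cells and Leydig cells, which were the 5 measured of 6 listed. They lay between percentile 88.0 and percentile 100 of Control signal, and their mean score was 2.88 to 3.35 over all arrays. RNA quality differed between arrays. The actin gap, the score at the 3' end minus that at the 5' end of beta-actin, is larger where less of the transcript's 5' end was labelled, and it exceeded 1.4 in 5 arrays: M500 replicate 04, M2000 replicate 05, P2500 replicate 05 and Control replicates 02 and 06. A second set of arrays stood apart by liver transcripts. In P2500 replicates 02 to 04 the mean score of 12 hepatocyte markers was 1.77, 1.76 and 1.73, while it was 0.0442 and -0.00935 in P2500 replicates 01 and 05 and 0.00540 to 0.405 in Control. Albumin (Alb) had scores of 4.15, 3.89 and 3.91 in those 3 arrays. Its scores also varied elsewhere, from 0.132 to 1.65 in Control and up to 2.29 in M2000 replicate 05. Of the 12 markers, 0 lay at or below the array median on average in P2500 and 5 did in Control.

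In Control testis the ABC members as a set lay near the middle of the array's signals, and the soluble ribosome factors were the brightest. Of the 50 ABC probe sets, 3 were brighter than bioB, the most dilute spiked-in control. The same held for 3646 of all 31042 probe sets, so a signal under bioB was common to most of the array. The 3 ABC probe sets were Abcf2 at percentile 97.9 of all probe sets, Abcf3 at percentile 95.02 and Abcf1 at percentile 93.1. Abcb6, a porphyrin-linked transporter of mitochondria and other membranes, followed at percentile 85.5, and Abcc1, an exporter of glutathione conjugates, at percentile 82.9. The dimmest genes were exporters of liver cells: Abcc2 at percentile 9.52, Abcg8 at percentile 9.28 and Abcb11, the bile salt export pump, at percentile 5.90. Between Control arrays the percentile of Abcf2 ran from 97.6 to 98.4 and that of Abcf3 from 94.3 to 95.6, so that these neighbours did not overlap. Abcf1 ran from 91.2 to 94.6 and did overlap Abcf3, while the ranges of Abcc2 (8.12 to 12.01), Abcg8 (8.88 to 12.2) and Abcb11 (3.66 to 14.3) all overlapped. In all, 22 of 50 ABC probe sets were above the median of all probe sets. A percentile ranks the signal of a probe set, and probe sets bind with unequal strength, so it is no order of RNA amounts. The 4 probe sets of Abca1 show this, since they lay at percentiles 79.6, 37.3, 27.8 and 3.01 in the same arrays.

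**Figure D1:**
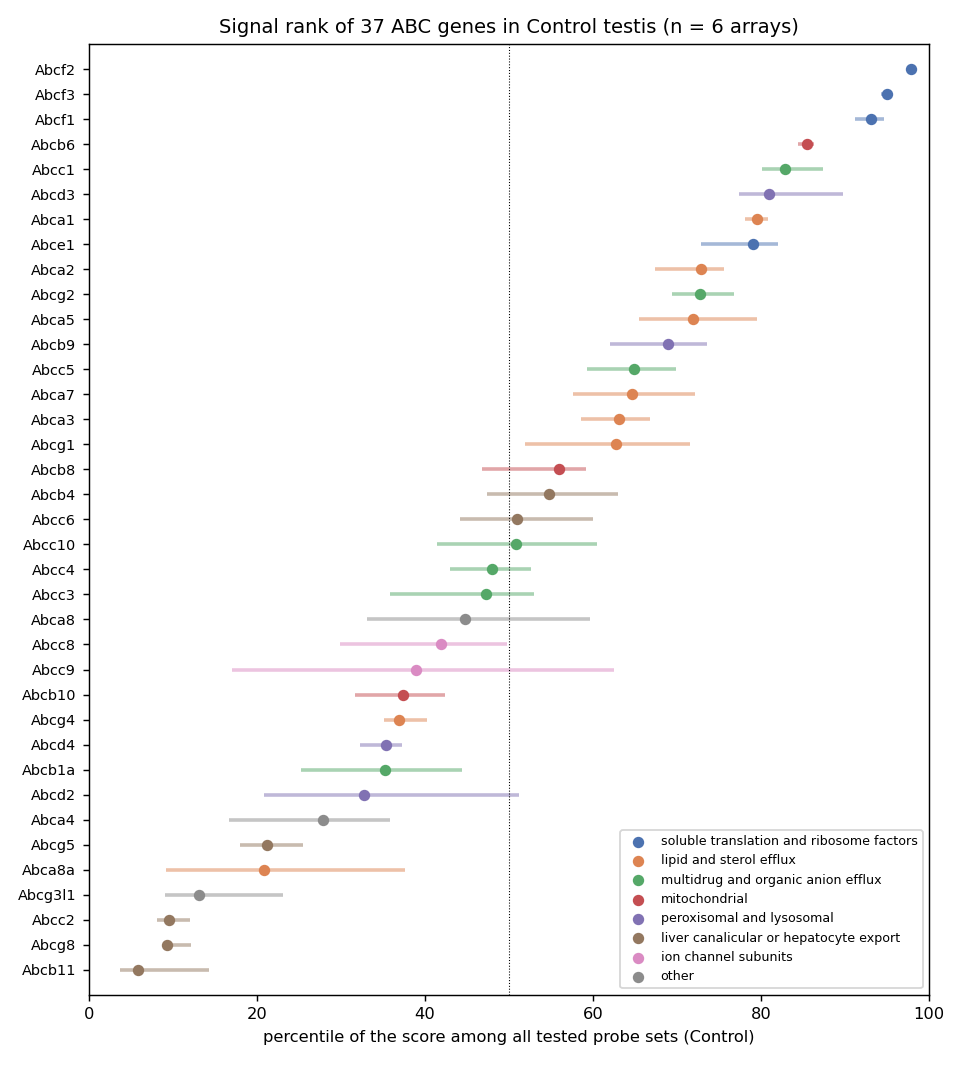
Percentile of the Control score among all tested probe sets (horizontal axis, percent) for the 37 ABC genes, 1 probe set per gene; points are the rank of the mean of 6 Control arrays, lines run from the lowest to the highest array, and colours give the role. Abcf2, Abcf3 and Abcf1 are at the top and Abcc2, Abcg8 and Abcb11 at the bottom.

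By role, the 4 soluble factors had a median percentile of 94.1 and the 8 lipid and sterol exporters, among them Abca1, Abca2 and Abcg1, one of 63.9. The 3 mitochondrial members had a median percentile of 56.0, the 4 peroxisomal and lysosomal members 52.2, and the 7 multidrug and organic anion exporters 50.9. The subunits Abcc8 and Abcc9 of potassium channels lay at 41.9 and 39.0. The 6 exporters of liver cells were lowest, with a median of 15.3, although Abcb4 (percentile 54.8) and Abcc6 (percentile 50.9) were mid-range.

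Members with CpG-rich promoter windows gave the brighter signals. The 17 genes above percentile 50 had a median of 27 CpG dinucleotides, and the 13 at or below it a median of 10. Across the 30 genes Spearman's rho between CpG count and Control percentile was 0.669 and Pearson's r was 0.628, given as a description, since the genes share the arrays and differ in probe binding. Abcc2, Abcg5 and Abcg8 had 5 CpG dinucleotides each, while Abcf2 had 23. Abcd3 had the most with 50.

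**Figure D2:**
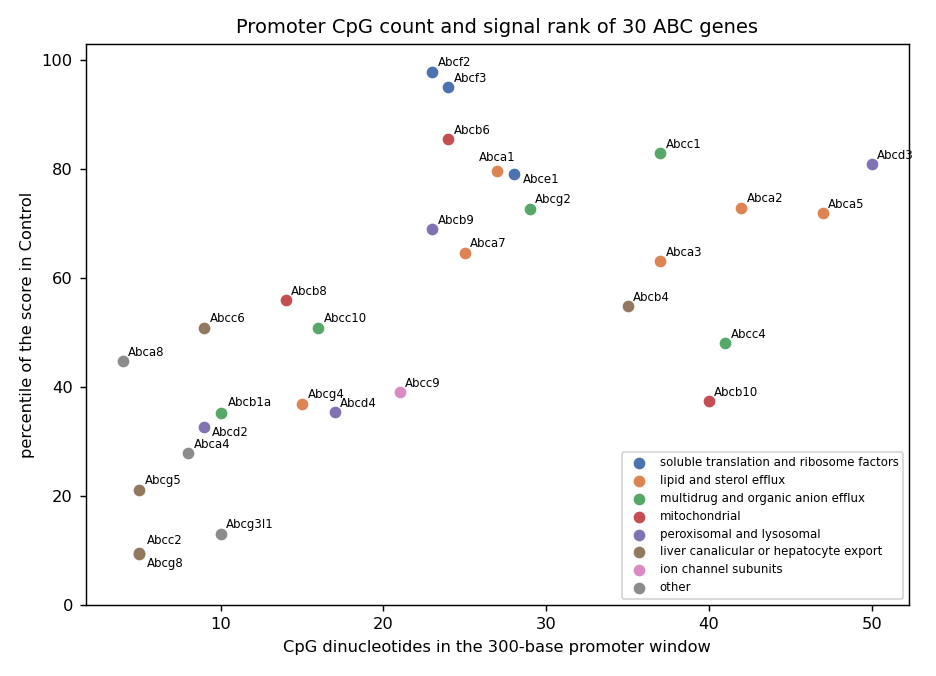
CpG dinucleotides in the 300-base promoter window (horizontal axis, count) against the percentile of the Control score (vertical axis, percent) for the 30 ABC genes with a window; each point is a gene, coloured by role. Abcc2, Abcg5 and Abcg8, with 5 each, sit low, and Abcf2, with 23, sits highest.

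No ABC probe set passed an adjusted p of 0.05 by limma in any exposed group against Control. This was also so for nearly all probe sets of the array: the share called was 0% in M500, M2000, P500, P2500 and T500 and 0.00644% in T1800. At an unadjusted p under 0.05, 2 of 50 ABC probe sets passed in M500, both lower (9% of all probe sets passed in either direction), 0 in M2000 (1.7%), 1 in P500, lower (3.36%), 2 in P2500, both higher (4.15%), 2 in T500, both lower (7.62%), and 1 in T1800, lower (5.84%). The ABC share lay at 2% to 4% where any passed, so that it was above the background in none of the 6 groups. Median differences of the 50 probe sets were -0.00959 in M500, -0.0138 in M2000, -0.00546 in P500, -0.00299 in P2500, -0.0171 in T500 and -0.00444 in T1800, beside medians of all probe sets between -0.00358 and 0.000708. The median standard error of an ABC difference was 0.0308 to 0.0360. This is the error of a single member and does not measure the spread of a median over 50. All 6 medians were negative, with 27 to 33 of 50 probe sets lower, and the 6 contrasts share the same Control arrays. In a bulk tissue sample, fewer cells of a type and less RNA per cell cannot be told apart.

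**Figure D3:**
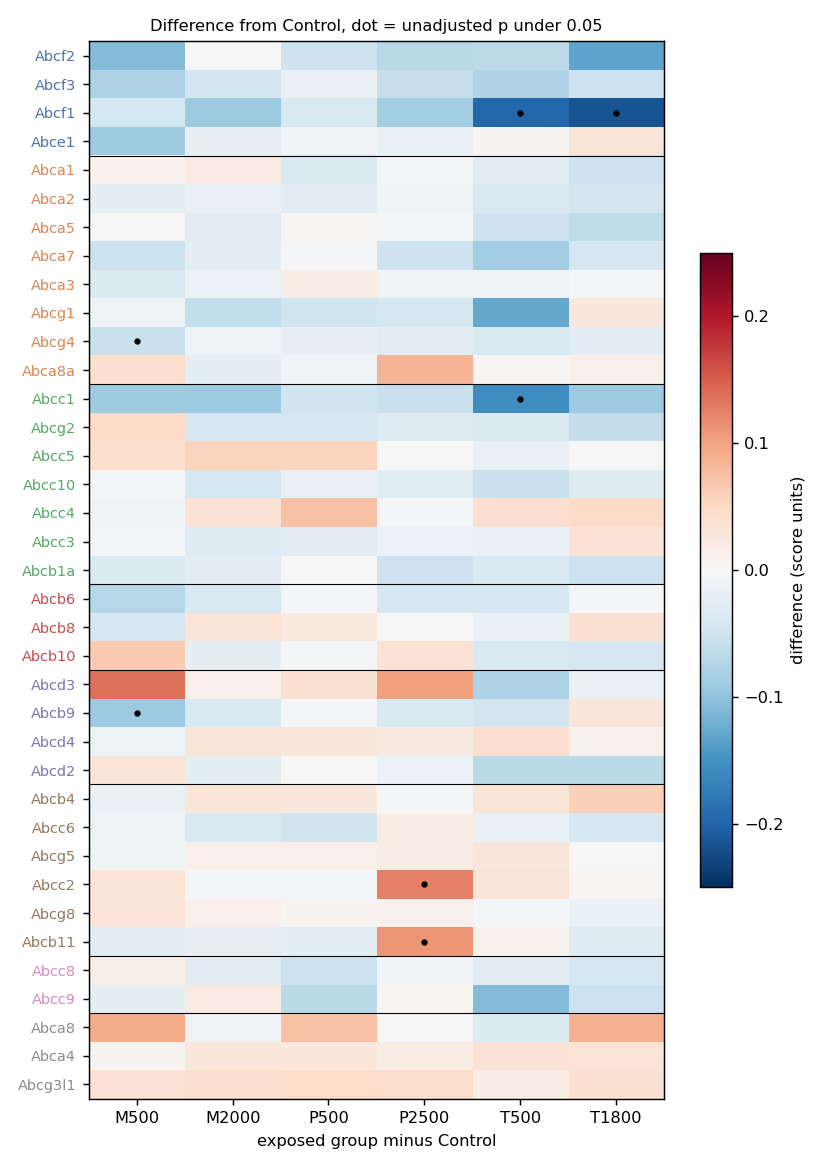
Difference of each exposed group from Control (columns, score units by colour, red higher and blue lower in the exposed group) for the 37 ABC genes in rows, ordered by role and Control rank; dots mark an unadjusted p under 0.05. Dots stand at Abcg4 and Abcb9 in M500, Abcc2 and Abcb11 in P2500, Abcf1 and Abcc1 in T500 and Abcf1 in T1800, and none of these passed after adjustment.

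Among the soluble factors, Abcf1, which promotes the start of translation, had its lowest group means in both triadimefon groups. Its scores were 1.36, 1.35, 1.16 and 1.25 in T500 and 1.26, 1.36, 1.27 and 1.15 in T1800, while Control ran from 1.30 to 1.68 with a median of 1.46. All 8 triadimefon arrays lay below the Control mean of 1.48, as did all M500 arrays and most arrays of each other exposed group. Both triadimefon groups overlapped Control. The difference was -0.196 ± 0.0697 (SE) in T500 (unadjusted p = 0.00911, adjusted p = 0.568) and -0.216 ± 0.0697 in T1800 (unadjusted p = 0.00455, adjusted p = 0.740). The actin gap moved with it: it averaged 0.790 ± 0.0748 in T500 (SD, n = 4), 0.852 ± 0.0529 in T1800 (SD, n = 4) and 1.12 ± 0.408 in Control (SD, n = 6), and the brightest Abcf1 scores of Control were those of the arrays above 1.4. Without the 5 arrays above 1.4 the differences were -0.104 in T500 and -0.124 in T1800 (adjusted p = 0.725 and 0.805). The animal numbers of T1800 and Control fell into an earlier and a later series, and the T1800 difference was -0.256 within the earlier series, where it is 1 T1800 array against 3 Control arrays, and -0.175 within the later series, with 3 arrays of each group. Every other exposed group was of the earlier series only, so its contrast with Control is unbalanced for series. Some markers of other cells also moved with the triadimefon groups. The mean score of 5 fibroblast and matrix markers was 0.536 to 1.06 in T500 and 0.844 to 1.05 in T1800, against 0.300 to 0.555 in Control, and that of the 2 measured of 3 erythrocyte markers was 1.16 to 1.42 in T500 and 1.15 to 1.27 in T1800, against 0.551 to 1.06 in Control. Of these ranges, only that of the fibroblast markers in T500 overlapped Control, and their part in the Abcf1 difference was not tested. The erythrocyte mean rested on Hbb, at 1.62 to 2.17 in T500, 1.55 to 1.84 in T1800 and 0.462 to 1.44 in Control. Alas2 stayed within its Control range of 0.619 to 0.763, at 0.669 to 0.728 in T500 and 0.679 to 0.752 in T1800. On average 1 fibroblast marker lay at or below the array median in T500, 0 in T1800 and 1 in Control, and 0 erythrocyte markers did in any of the 3 groups.

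The other soluble factors did not pass either. Abcf2, which acts with ribosomes like its relatives, scored 2.22, 2.28, 2.16 and 2.29 in T1800 and 2.29 to 2.58 in Control. Its difference was -0.132 (95% interval -0.264 to 0.000952, adjusted p = 0.767). Abcf3 had a difference of -0.0584 in P2500 (adjusted p = 1), which turned to 0.0191 without the arrays of actin gap above 1.4. Its dimmer probe set differed by 0.00399 in P2500 with all arrays. Over the 6 exposed groups the median difference of the 4 soluble factors lay between -0.0927 and -0.0278. Abce1, which splits ribosomes for reuse, was at percentile 79.1 in Control, and its difference of largest size was -0.0892 in M500 (adjusted p = 0.724). Its scores were 0.630, 0.578 and 0.334 in M500 and 0.405 to 0.718 in Control. The low M500 score was that of replicate 04, an array of actin gap above 1.4, and the other M500 arrays lay within the Control range.

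Abca1, which loads cholesterol onto apolipoproteins and is a target of the sterol sensor LXR, had no difference past the threshold. Its scores were 0.667, 0.611 and 0.610 in M500, 0.606, 0.665, 0.585, 0.627 and 0.724 in M2000, and 0.557, 0.565, 0.594 and 0.622 in P500. They were 0.577, 0.619, 0.601, 0.699 and 0.596 in P2500, 0.569, 0.562, 0.633 and 0.610 in T500 and 0.587, 0.626, 0.586 and 0.481 in T1800, against 0.568 to 0.669 in Control with a median of 0.618. Of the exposed arrays, 6 lay outside the Control range: M2000 replicate 05 and P2500 replicate 04 above it, and P500 replicates 01 and 02, T500 replicate 02 and T1800 replicate 05 below it. T1800 replicate 05 was the lowest, and every exposed group overlapped Control. The differences ran from -0.0510 in T1800 (95% interval -0.112 to 0.00989) to 0.0207 in M2000 (-0.0363 to 0.0778), with adjusted p between 0.767 and 1. With the 5 arrays whose actin gap exceeded 1.4 left out, they ran from -0.0336 in T1800 to 0.0355 in M500. The 4 Abca1 probe sets disagreed in sign in 5 of the 6 groups and were all lower in P500. The dimmest of them (percentile 3.01) scored -0.529, -0.591, -0.446 and -0.602 in P500 and -0.503 to -0.437 in Control, a difference of -0.0684 with an unadjusted p of 0.0118 and an adjusted p of 1.

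The other lipid and sterol exporters had median differences between -0.0388 and -0.00845 over the 6 groups, counting Abca1. Abcg1, which passes cholesterol to mature lipoprotein particles, scored 0.0826, 0.0540, 0.0797 and 0.0332 in T500 and 0.0356 to 0.373 in Control, a difference of -0.127 (95% interval -0.256 to 0.00121, adjusted p = 0.659). Its highest Control scores were those of the arrays with an actin gap above 1.4, and without the arrays above 1.4 the difference was -0.0471. The 3 Abcg1 probe sets had differences of mixed sign in T500, up to 0.0288. Abcg4, a relative of Abcg1 best known from brain, scored -0.115, -0.154 and -0.235 in M500 and -0.130 to -0.0848 in Control, and the lowest was the M500 array of actin gap above 1.4. This difference of -0.0560 had an unadjusted p of 0.0156 and an adjusted p of 0.400, and it was -0.0203 without the arrays above 1.4.

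The barrier exporters Abcb1a, Abcg2, Abcc1 and Abcc4 gave no difference past the threshold. Abcg2, which exports sulfate conjugates and many drugs, scored 0.356, 0.313, 0.356 and 0.338 in T1800 and 0.321 to 0.522 in Control. All T1800 arrays lay below the Control mean of 0.401, as did all P500 arrays and most of M2000, P2500 and T500. The T1800 difference was -0.0605 (95% interval -0.126 to 0.00516, adjusted p = 0.767), and differences in the other 5 groups ran from -0.0429 in M2000 to 0.0484 in M500. The highest Control scores of Abcg2 were those of replicates 02 and 06, the arrays of actin gap above 1.4. Without the arrays above 1.4 the T1800 difference was -0.0166, and those of the other 5 groups ran from -0.0113 in M2000 to 0.0668 in M500. Abcb1a, a main drug pump of barrier vessels, had scores of -0.252, -0.157, -0.199, -0.230 and -0.0491 in P2500 and of -0.212 to -0.0452 in Control. Its difference in P2500 was -0.0516 (adjusted p = 1) and its differences over the 6 groups lay between -0.0540 and 0.000686. When the arrays above 1.4 were left out, they lay between -0.0600 in M500 and 0.0325 in P500. The dimmer Abcb1a probe set had the other sign in P2500 with all arrays, at 0.0114.

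Abcc1 scored 0.537, 0.575, 0.594 and 0.692 in T500, against 0.642 to 1.004 in Control with a median of 0.732. All T500 arrays were below the Control mean of 0.755, as were all T1800 arrays and most arrays of each other exposed group. Of the T500 arrays, only replicate 04 reached into the Control range. The difference of -0.156 ± 0.0646 (SE) had an unadjusted p of 0.0232 and an adjusted p of 0.611. The highest Control score was that of replicate 02, an array of actin gap above 1.4, and without the arrays above 1.4 the difference was -0.0986. Abcc4, an exporter of cyclic nucleotides and prostaglandins, scored 0.0492, 0.0438, 0.0946 and 0.0739 in P500 and -0.0591 to 0.0445 in Control, a difference of 0.0731 (95% interval -0.00471 to 0.151, adjusted p = 1). Abcc5, a relative that also exports nucleotides, differed by 0.0563 in M2000 and 0.0553 in P500 (adjusted p = 1 for each). Its dimmer probe set differed by 0.0281 in M2000 and -0.00174 in P500.

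**Figure D4:**
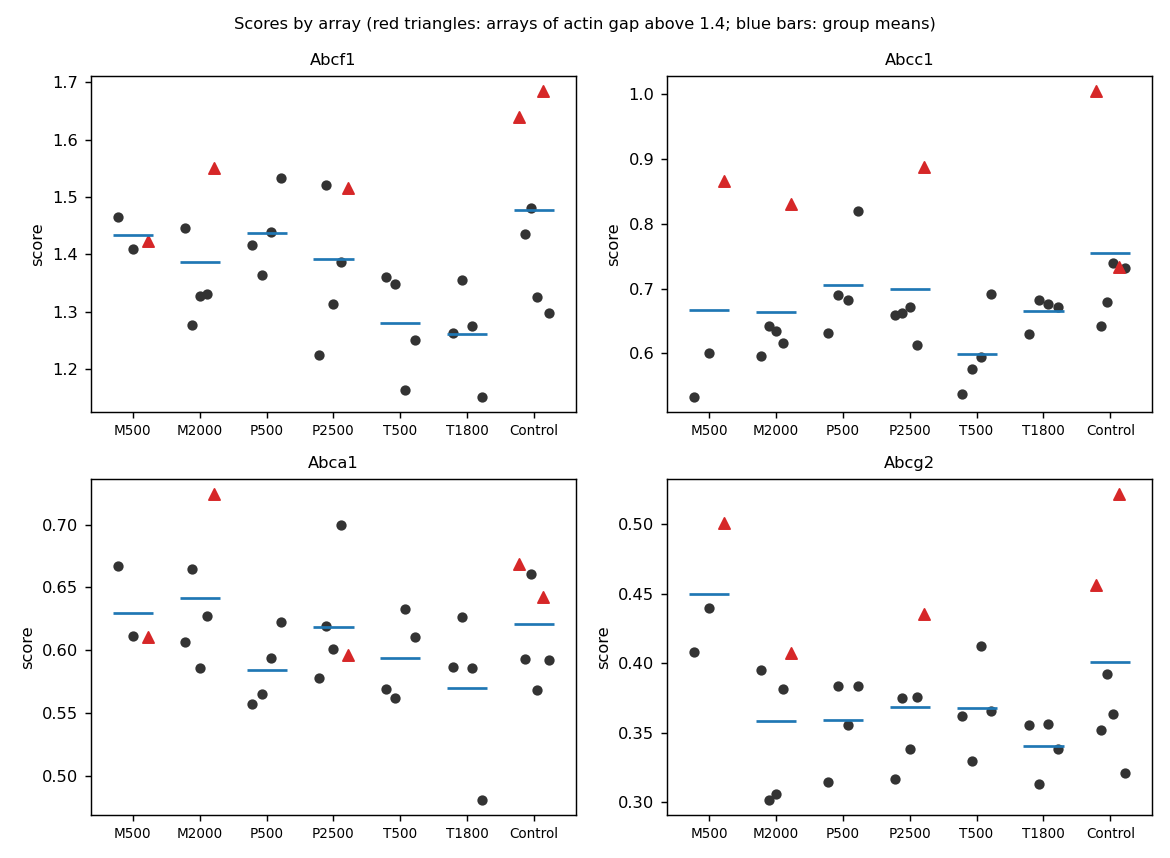
Scores by array (vertical axis, score units) of Abcf1, Abcc1, Abca1 and Abcg2 in the 6 exposed groups and Control; each point is an array, blue bars are group means, and red triangles are the 5 arrays of actin gap above 1.4. For Abcc1, 4 of the 5 triangles are the highest of their group (Control replicate 06 is not), and the T500 and T1800 arrays are low for Abcf1 while overlapping Control.

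The shift of largest size relative to its error among the liver exporters was that of Abcc2 in P2500, and it came from 3 of 5 arrays. Abcc2, which exports bilirubin glucuronide and other conjugates into bile, scored -0.354, -0.127, -0.194, -0.170 and -0.320 in P2500 replicates 01 to 05 and -0.385 to -0.336 in Control with a median of -0.353. The highest scores were those of replicates 02 to 04, and replicate 01 lay within the Control range. The difference was 0.126 ± 0.0298 (SE, 95% interval 0.0652 to 0.188, unadjusted p = 0.000238, adjusted p = 0.0887). Abcb11 scored -0.363, -0.178, -0.259, -0.299 and -0.406 in P2500 and -0.466 to -0.311 in Control, and the same 3 replicates were its highest. Its difference was 0.111 ± 0.0297 (SE, 95% interval 0.0501 to 0.172, unadjusted p = 0.000894, adjusted p = 0.137).

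P2500 replicates 02 to 04 were the arrays with hepatocyte marker means of 1.73 to 1.77. They also had the highest mean scores of 5 Leydig cell markers, at 1.408, 1.371 and 1.385, where the highest other array (T500 replicate 04) had 1.366 and Control ran from 0.940 to 1.24. Of these markers, only Cyp17a1 and Star lay above their Control range in all of replicates 02 to 04. The Leydig cell enzyme Cyp17a1 scored 2.33, 2.21 and 2.27 (Control 1.35 to 1.89). Star scored 1.19, 1.03 and 1.02 (Control 0.398 to 0.818). Among these arrays, Hsd3b1 and Lhcgr exceeded their Control range in replicate 02 alone, and Insl3 in replicates 03 and 04 alone. The fibroblast and matrix means of replicates 02 to 04 were 0.904, 0.906 and 0.890, above the 0.300 to 0.555 of Control. The part of these cells in the values below was not tested. Abcc2 and Abcb11 lay above all 28 other arrays in each of them, where the highest other Abcc2 score was -0.265 and the highest other Abcb11 score was -0.311. These were 2 of the 50 ABC probe sets (4%), beside 1.12% of all probe sets, and 0 ABC probe sets lay below all other arrays, beside 0.0515%. No other exporter of liver cells lay above all 28 other arrays in each of those 3. Abcg5, with Abcg8 a pump of plant sterols and cholesterol, scored -0.235, -0.193 and -0.226 there, while P2500 replicates 01 and 05 had -0.214 and -0.255. Abcg8 scored -0.365, -0.364 and -0.293, and Abcb4, which moves phosphatidylcholine, 0.0947, 0.109 and 0.0616. Abcg5 in replicate 03 and Abcg8 in replicate 04 were slightly above the highest of the 28 other arrays. Abcc6 scored 0.0772, 0.0543 and 0.108 in replicates 02 to 04 and -0.000859 and -0.0189 in replicates 01 and 05. Its Control range was -0.0476 to 0.145. With replicates 02 to 04 left out of normalization and fit, the P2500 difference was 0.0225 for Abcc2 (95% interval -0.0336 to 0.0785) and 0.0276 for Abcb11 (-0.0355 to 0.0907) with 2 P2500 arrays left. In that fit 2 of 50 ABC probe sets had an unadjusted p under 0.05, beside 3.83% of all probe sets. They were Abcf3 (difference -0.139) and the dimmest probe set of Abcg1 (-0.0721), each with an adjusted p of 1.

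Whether Abcc2 and Abcb11 passed in P2500 depended on which arrays were used and how they were weighted. P2500 replicates 01 and 05 had the lowest P2500 scores of both genes, so a fit without either must give a larger difference. Leaving out replicate 01 gave Abcc2 a difference of 0.157 (adjusted p = 0.00168) and Abcb11 one of 0.127 (adjusted p = 0.0457), with 0.863% of all probe sets called. Leaving out replicate 05 gave 0.148 (adjusted p = 0.00585) and 0.137 (adjusted p = 0.00821), with 0.912% called. Weighting arrays by their estimated quality called Abcc2, Abcb11 and Abca8a, with 2.84% of all probe sets called. Without the 5 arrays of actin gap above 1.4, Abcc2 (0.145, adjusted p = 0.0293) and Abcb11 (0.149, adjusted p = 0.00644) also passed in P2500, with 0.992% of all probe sets called. In that fit the second, dimmer probe set of Abcf3 passed in P500 (-0.159, adjusted p = 0.0456), with 0.638% called. The earlier animal series held all P2500 arrays but only part of Control. Within it neither gene passed in P2500, with 0.144 for Abcc2 (adjusted p = 0.662) and 0.0736 for Abcb11 (adjusted p = 0.845). In the 5 other exposed groups Abcc2 differed from Control by -0.00543 to 0.0349 and Abcb11 by -0.0317 to 0.00862, and no interval excluded 0.

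**Figure D5:**
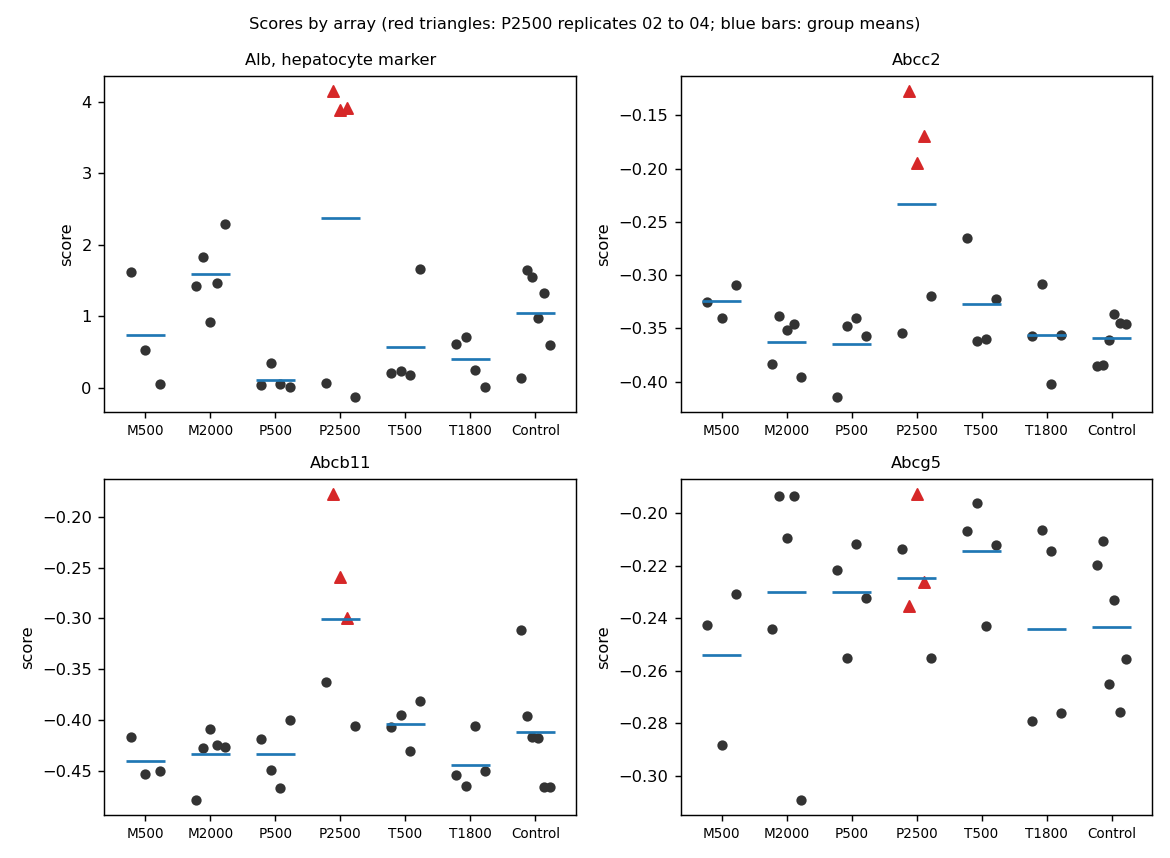
Scores by array (vertical axis, score units) of the hepatocyte marker Alb and of Abcc2, Abcb11 and Abcg5 in the 6 exposed groups and Control; points are arrays, blue bars group means, and red triangles P2500 replicates 02 to 04. The triangles are the highest 3 arrays for Alb, Abcc2 and Abcb11, and mix with the other arrays for Abcg5.

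No member of organelles or channels passed the adjusted threshold. Abcb9, a peptide carrier of lysosomes, scored 0.242, 0.192 and 0.214 in M500 and 0.179 to 0.426 in Control, a difference of -0.0909 with an unadjusted p of 0.0468 and an adjusted p of 0.548. Abcb6 differed by -0.0718 and Abcb10, a mitochondrial member needed for haem synthesis, by 0.0646 in M500 (adjusted p = 0.625 and 0.649). Both rested on M500 replicate 04, an array of actin gap above 1.4: without that replicate the differences were -0.00721 for Abcb6 and 0.00178 for Abcb10, and without all 5 arrays above 1.4 they were 0.00704 for Abcb6, with the sign turned, and 0.0176 for Abcb10. The second Abcb10 probe set differed by -0.000329 in M500 with all arrays. Abcd4, which takes part in handling cobalamin in lysosomes, scored -0.110, -0.0704, -0.0780 and -0.0737 in T500 and -0.154 to -0.112 in Control. The difference of 0.0417 had a 95% interval of -4.04e-05 to 0.0834 and an adjusted p of 0.656. The channel subunit Abcc8 differed by -0.0532 in P500 (adjusted p = 1). Abcg3l1, a rodent relative of Abcg2, differed by 0.0416 in M2000, 0.0453 in P500 and 0.0449 in P2500 (adjusted p = 1 for each).

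Some members moved with the actin gap, as did probe sets over the whole array. No ABC difference from Control exceeded 0.216 in size, whereas the median of the 5 arrays of actin gap above 1.4 was 0.487 above that of the other 26 for Abcd3, an importer of fatty acids into peroxisomes. In the 5 arrays of actin gap above 1.4, 4 of 50 ABC probe sets lay above all 26 other arrays (4.72% of all probe sets did so) and 1 lay below them (4.18%). Counts this small do not set the ABC members apart from the array. The 4 higher ones were those of Abcd2, Abca5 and Abcc9 and the dimmer one of Abcb1a, named after their values were seen. Abcd2, a peroxisomal importer of very long chain fatty acids, scored -0.0715 to 0.0272 in the 5 arrays and -0.263 to -0.114 in the others. The member lower in all 5 was the second, dimmer probe set of Abcf3, at 0.0973 to 0.491 against 0.517 to 0.794, whereas the brighter Abcf3 probe set did not go down with it. For Abcd3 the medians were 1.11 in the 5 arrays and 0.627 in the others, and Control replicate 06, which is 1 of the 5, had 0.541.

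At the matched dose of 500 ppm the compounds could be compared with each other in 3 pairs, with p-values adjusted over all probe sets of the 3 pairs together. All 3 compounds have a triazole ring. Among their other groups, myclobutanil has a nitrile group, propiconazole a dioxolane ring and triadimefon a ketone. No ABC probe set passed in any pair, and 0% of all probe sets did. At an unadjusted p under 0.05, 3 of 50 ABC probe sets passed for P500 against M500 (7.48% of all), 5 for T500 against M500 (6.69%) and 2 for T500 against P500 (5.08%). Abcg2 recurred: its scores were 0.314, 0.383, 0.355 and 0.384 in P500, below 0.408, 0.440 and 0.501 in M500, with a difference of -0.0903 (95% interval -0.168 to -0.0127, adjusted p = 0.746). T500 minus M500 was -0.0820 for Abcg2 (95% interval -0.160 to -0.00432, adjusted p = 0.772), and these 2 comparisons share the 3 M500 arrays. The highest M500 score of Abcg2 was that of replicate 04, an array of actin gap above 1.4, and the part of RNA quality in this difference was not tested.

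For Abcc2 the differences at 500 ppm were -0.0403 in P500 minus M500 (95% interval -0.118 to 0.0368), -0.00298 in T500 minus M500 (-0.0802 to 0.0742) and 0.0374 in T500 minus P500 (-0.0341 to 0.109). Those of Abca1 were -0.0450 (-0.117 to 0.0270), -0.0360 (-0.108 to 0.0360) and 0.00895 (-0.0577 to 0.0756) in the same order of pairs. Adjusted p-values of these 6 lay between 0.829 and 0.990. All intervals include 0, which does not show that the compounds act alike. The smallest unadjusted p in the 3 pairs was that of the dimmest Abca1 probe set, at 0.0952 in T500 minus P500 (unadjusted p = 0.00194, adjusted p = 0.578).

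The high doses differed between compounds and are set side by side only. Abcc2 averaged -0.363 ± 0.0252 in M2000 (SD, n = 5), -0.233 ± 0.0985 in P2500 (SD, n = 5) and -0.356 ± 0.0385 in T1800 (SD, n = 4). Within compounds, 5 of 50 ABC probe sets had an unadjusted p under 0.05 for M2000 against M500 (7.55% of all), 2 for P2500 against P500 (3.83%) and 1 for T1800 against T500 (1.97%), and none passed after adjustment (0%, 0% and 0.00322% of all). The 2 in propiconazole were again Abcc2, at 0.132 (adjusted p = 0.147), and Abcb11, at 0.133 (adjusted p = 0.147). Both passed for P2500 against P500 with array weights (2.75% of all probe sets called), without P2500 replicate 01 (0.744%) and without P2500 replicate 05 (0.78%). Neither passed with P2500 replicates 02 to 04, the arrays with liver transcripts, left out of normalization and fit, which leaves 2 P2500 arrays. The 1 in triadimefon was Abcg1, which scored 0.291, 0.213, 0.267 and 0.0889 in T1800 and 0.0332 to 0.0826 in T500, a difference of 0.153 (adjusted p = 1). The dimmer Abcg1 probe sets overlapped between these groups. The brighter of those scored -0.0209, -0.0433, -0.0149 and -0.0681 in T1800, all within its T500 range of -0.0737 to 0.0159.

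Genes that work with the transporters were taken from 2 lists. Of 14 measured LXR and sterol efflux partners of 16 listed, 0 passed the adjusted threshold in any group, and at an unadjusted p under 0.05 only P2500 had any, with 2 higher (4.15% of all probe sets passed in either direction): Apoe (0.404) and Apoc1 (0.751), apolipoproteins that accept lipid. Apoc1 scored -0.376, 0.869, 1.22, 1.18 and -0.435 in P2500 replicates 01 to 05 and -0.369 to -0.0851 in Control. Apoe scored 2.01, 2.42, 2.41, 2.41 and 1.27 in P2500 and 1.25 to 1.90 in Control. Both were highest in replicates 02 to 04, the arrays with liver transcripts. Of 14 measured xenobiotic receptors, targets and uptake carriers of 17 listed, 0 passed either, and 5 were higher in P2500 at an unadjusted p under 0.05, beside the same 4.15% of all probe sets: Slco1a4, Nqo1, Cyp1a1, Slco1b2 and Cyp3a23-3a1. Cyp3a23-3a1, a steroid and drug hydroxylase of liver, scored -0.454, 1.39, 1.21, 1.17 and -0.427 in P2500 replicates 01 to 05, and Slco1b2, a liver uptake carrier, -0.218, 0.237, 0.282, 0.254 and -0.299. Slco1a4, another uptake carrier, scored 0.109, 0.507, 0.404, 0.415 and 0.207. These 3 genes were high in replicates 02 to 04 alone among the P2500 arrays. Nqo1, a quinone reductase, scored 0.0925, 0.218, 0.197, 0.122 and 0.0907 and was also highest in those replicates, whereas Cyp1a1, a target of the aryl hydrocarbon receptor, at -0.179, -0.188, -0.123, -0.180 and -0.229, was not set apart by them. The receptors of these lists that were measured, among them Nr1h3, Nr1h2, Nr1i2, Nr1i3 and Ahr, did not pass at an unadjusted p under 0.05 in any group. In M500 Nqo1 was higher and Slco2b1 lower at that level (9% of all probe sets passed), and in P500 Slco2b1 was lower (3.36%).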

How the data were processed

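Testis RNA of 31 rats was measured, 1 Affymetrix rat genome array per animal. Per the labels' protocols, TRI Reagent extracts were freed of DNA, and biotin-labelled cRNA was made after priming with oligo-dT. The deposited values are a score per probe set made by the authors. The authors' probe summary and normalization were unnamed in the sources at hand. The base of the scale and the gain of each array stayed unknown. The design had assumed log2 values; as the values were scores, differences are given in score units.

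Scores were quantile normalized over 31099 probe sets, 57 control probe sets were removed, and group means were fitted to the 31 arrays in 1 linear model by limma 3.58.1 in R 4.3.3 (lmFit, eBayes, equal weights). Each contrast was adjusted by Benjamini-Hochberg over 31042 probe sets at a threshold of 0.05, the 3 pairs at 500 ppm jointly. All p-values are limma's and two-sided, and intervals are at 95%. The number of arrays limits the precision. The fit was tested on simulated data. The platform annotation, which can be old, gave 1 symbol to 20826 probe sets, several to 436 and none to 9780. RefSeq promoter windows matched 30 of the 37 genes by Entrez gene identifier.

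Named genes were Abcc2, Abca1 and the barrier and liver exporters always, in Control the 5 highest and 3 lowest, and in each exposed group those past the threshold or else the 3 of smallest p in each direction. Abcb1b was not named by a probe set of 1 symbol. The members and lists were chosen with earlier results of these data known. Replicate numbers of different groups belong to different animals and pair no samples. This was looked at in 20 pairs of arrays, each an exposed array and the Control array of the same number. Their deviations from the group means correlated between -0.768 and 0.574, over 0.1 in 9. Alternatives were other scalings, array weights, other fits and filters, the actin gap, animal number series, a replicate block, and leaving out each replicate.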

Additional observations from a re-analysis of the deposited data

Results flagged for a closer look

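For 26 named ABC genes, the highest or lowest array of each group of 4 to 6 was set against its nearest neighbour by Dixon's ratio, in 156 combinations of gene and group. In 12 of them 1 array stood apart, and a 95% limit picks out about 5% of groups by chance. Abcc1 was high in 3 arrays that all had an actin gap above 1.4: M2000 replicate 05 (0.830, next array 0.642), P2500 replicate 05 (0.888, next 0.671) and Control replicate 02 (1.004, next 0.739). Abcb9 was low in M2000 replicate 05 (0.218, next 0.278), the same array, and high in T1800 replicate 04 (0.394, next 0.324). Abcf2 was high in Control replicate 06 (2.58, next 2.38), which also had a gap above 1.4. The part of RNA quality in these values was not tested.

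Abcg8 stood apart in 3 groups: low in P500 replicate 04 (-0.391, next -0.346), and high in P2500 replicate 04 (-0.293, next -0.359) and in Control replicate 03 (-0.334, next -0.360). Of the P2500 arrays with liver transcripts, replicate 04 was thus the one apart for Abcg8, and replicate 03 was low for Abcc4 (-0.0742, next -0.0106). Abcb11 was low in M2000 replicate 01 (-0.478, next -0.428), and Abcg1 was low in P2500 replicate 01 (0.00729, next 0.156).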

How the results depend on the processing

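Of 369 counts of ABC probe sets past the threshold, medians and ranks recomputed under alternatives, 353 stayed within 1.5 times the count or within 1 SD, and 16 did not. With array weights 3 ABC probe sets passed for P2500 against Control and 2 for P2500 against P500. Without the arrays of actin gap above 1.4, 2 passed for P2500 against Control (0.992% of all probe sets) and 1 for P500 against Control (0.638%). The 2 were Abcc2 and Abcb11, and the 1 was the second probe set of Abcf3. Leaving out each replicate gave 0 to 2 for P2500 against Control and 0 to 2 for P2500 against P500, the 2 being Abcc2 and Abcb11 without P2500 replicate 01 or 05, and 0 for the other contrasts. Left out in turn, the replicates moved the P2500 difference from Control between 0.10 and 0.157 for Abcc2 and between 0.0804 and 0.137 for Abcb11. As deposited, the M500 median was 0.0170, against -0.00959 after quantile normalization. Over the 3 ABC probe sets above bioB alone, the median was -0.0775 in M500, -0.0471 in M2000, -0.0394 in P500, -0.0694 in P2500, -0.0753 in T500 and -0.132 in T1800, a set that holds only the Abcf members. With 1 probe set per gene the median Control percentile was 50.9. Of 1835 differences of named genes under alternatives, 104 changed sign, 23 moved by over 1 SD, and 8 passed the threshold, all of Abcc2 or Abcb11 in P2500. With the replicate block 0 ABC probe sets passed in each of the 12 contrasts, and the P2500 median was -0.00291. The cause of these moves was not tested. Most members, like most probe sets of the array, measured under bioB, where a score can miss a change in RNA amount.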
